A study of Mus musculus with 10 samples.

Results

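Open chromatin was examined at 10 imprinted genes, namely Igf2, H19, Dlk1, Meg3, Peg3, Grb10, Mest, Peg10, Nnat and Plagl1. A peak was assigned to a gene when its summit lay inside the GENCODE gene body or within 20 kb of it on GRCm38. The rule used position only. The genes were grouped as active in neural stem cells, but no transcript was measured here and the peaks differ among them: H19 has none at its start site, and Meg3 and the first start site of Igf2 have few. The rule gave 398 of the 759157 peaks in the 10 deposited lists. Peaks that shared at least 1 bp between libraries were merged, which placed the 398 peaks in 58 of 137454 regions.

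The study asked how the cell cycle inhibitor p27, encoded by Cdkn1b, acts when neural progenitors leave the cell cycle. ATAC-seq, in which the transposase cuts accessible DNA, was run on 50000 cells per library from cultures of the subependymal zone of 10-week-old mice, a neurogenic niche of the adult brain. There were 3 wild-type proliferating libraries (WT PRO), 3 wild-type differentiating libraries (WT DIFF), 2 p27KO PRO libraries and 2 p27KO DIFF libraries. PRO cells grew as neurospheres, with EGF at 20 ng/ml and FGF at 10 ng/ml, and are labelled as 3 days in vitro. DIFF cells had been plated on Matrigel in FGF for 2 days and were taken 24 h after the mitogens were replaced by 2% serum. Mitogens, serum, substrate and time in culture therefore changed together between PRO and DIFF, and their parts cannot be told apart. The labels name the knockout as Cdkn1b (p27KO) and do not describe how the allele was made. They call the libraries biological replicates and do not tie them to single mice, so p-values measure the spread between these libraries.

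Imprinted genes are transcribed mainly from the maternal or the paternal copy. Which copy is used depends on an imprinting control region that is methylated in 1 germ line, and on proteins that read that methylation. ZFP57 keeps the methylated copy methylated and recognises the hexamer TGCCGC, while CTCF binds the unmethylated maternal copy upstream of H19 and insulates Igf2 from shared enhancers. Several of these genes, such as Igf2 and Dlk1, are known as regulators of growth and of neural stem cells. The peak lists hold no allele information, so an open region at such a gene is the sum over both copies.

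The list lengths ranged from 57534 to 91801 peaks, and the genes held 30 to 49 peaks per library, or 4.84 to 5.51 per 10000 peaks of the list. WT DIFF replicate 3 stood apart from the other WT DIFF libraries, with 88738 peaks against 61783 and 57534, and 48 peaks at the imprinted genes against 30 and 31. A peak overlapped Cdkn1b in all 6 WT libraries and in none of the 4 p27KO libraries, which follows the titles and genotype labels, while a free-text label of the p27KO libraries names them WT. Within 3 kb of a Cdkn1b start site, however, both p27KO PRO libraries had a peak outside the gene, and neither p27KO DIFF library did. Promoter peaks of 7 of 7 neural stem cell markers and 3 of 3 astrocyte markers were present in all 10 libraries. Those of 2 of 3 neuronal, 3 of 4 microglial, 1 of 3 pericyte and meningeal, 1 of 2 ependymal and choroid, 0 of 3 endothelial and 0 of 3 oligodendrocyte markers were, and Cx3cr1 and Mag had none. An accessible promoter does not show that its gene is transcribed, and the part of other cell types in the results was not tested.

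Sequences are shown first for 4 regions open in all 10 libraries, picked for their many motif matches among the wide regions searched. The counts for the others are given with their genes. The ZFP57, CTCF part and YY1 letters were searched for their known roles at imprinting control regions, H19 and Peg3. Matches at these genes are therefore not independent support. The windows they are compared with below were matched for width and not for CpG dinucleotides. Each is the 300-base stretch, free of annotated exons, that held the most matches of the motif named. All are from the plus strand of GRCm38, and capitals mark the matches on either strand. For H19 the letters were GGNGGCAG, a part of the CTCF motif (the window is chr7:142581742-142582041, upstream of the gene). One of these matches overlaps the ZFP57 hexamer. For Peg3 they were GCCATNTT, the core of the YY1 motif (chr7:6727672-6727971, intron), and for Mest (chr6:30737596-30737895, intron) and Plagl1 (chr10:13091025-13091324, intron) the ZFP57 hexamer TGCCGC.
H19 upstream region: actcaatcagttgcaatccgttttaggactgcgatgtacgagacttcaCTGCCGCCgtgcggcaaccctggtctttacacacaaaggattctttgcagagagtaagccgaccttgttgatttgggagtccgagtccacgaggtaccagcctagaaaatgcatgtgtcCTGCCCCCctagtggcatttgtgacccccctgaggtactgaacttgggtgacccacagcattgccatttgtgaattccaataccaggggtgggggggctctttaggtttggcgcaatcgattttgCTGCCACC
Peg3 intron: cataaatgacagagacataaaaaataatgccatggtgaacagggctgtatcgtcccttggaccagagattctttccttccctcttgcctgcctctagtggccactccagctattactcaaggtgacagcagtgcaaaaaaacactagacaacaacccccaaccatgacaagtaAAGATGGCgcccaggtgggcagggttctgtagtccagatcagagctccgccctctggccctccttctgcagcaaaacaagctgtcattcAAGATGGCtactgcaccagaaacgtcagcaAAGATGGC
Mest internal start site: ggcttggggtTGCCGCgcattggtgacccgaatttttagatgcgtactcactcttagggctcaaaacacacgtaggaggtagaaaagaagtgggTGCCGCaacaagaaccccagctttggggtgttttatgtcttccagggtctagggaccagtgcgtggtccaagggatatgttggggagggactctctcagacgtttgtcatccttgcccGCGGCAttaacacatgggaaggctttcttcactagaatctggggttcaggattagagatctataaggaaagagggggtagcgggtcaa
Plagl1 internal start site: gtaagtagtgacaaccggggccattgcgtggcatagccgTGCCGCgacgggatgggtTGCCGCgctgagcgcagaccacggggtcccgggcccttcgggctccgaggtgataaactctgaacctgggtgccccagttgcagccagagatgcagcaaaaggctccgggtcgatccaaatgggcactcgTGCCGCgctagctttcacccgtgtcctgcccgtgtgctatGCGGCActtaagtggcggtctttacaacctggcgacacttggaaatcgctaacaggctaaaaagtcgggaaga

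The second set holds the 3 regions that changed between PRO and DIFF and whose sequence may be printed, as 201 bases around the summit (chr12:109441490-109441690, chr12:109449615-109449815 and chr10:13151371-13151571). They have no capitals because none of the 4 motifs searched (ZFP57, CTCF part, YY1 and AP-1, the last as TGANTCA) had a match there, which says only that these letters are not in these windows.
Dlk1 at -11.23 kb: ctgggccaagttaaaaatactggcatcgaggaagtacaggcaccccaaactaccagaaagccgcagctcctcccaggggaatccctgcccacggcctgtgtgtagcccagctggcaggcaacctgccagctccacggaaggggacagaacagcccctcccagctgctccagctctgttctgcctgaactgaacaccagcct
Dlk1 at -3.11 kb: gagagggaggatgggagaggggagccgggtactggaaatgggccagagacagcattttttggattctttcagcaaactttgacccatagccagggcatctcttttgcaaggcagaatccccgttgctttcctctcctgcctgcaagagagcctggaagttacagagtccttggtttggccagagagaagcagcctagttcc
Plagl1 at 90.97 kb: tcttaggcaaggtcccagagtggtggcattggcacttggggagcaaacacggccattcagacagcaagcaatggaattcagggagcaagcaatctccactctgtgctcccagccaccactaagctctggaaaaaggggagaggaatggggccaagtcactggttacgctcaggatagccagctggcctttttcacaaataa

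H19 and Meg3 had no promoter region that could be tested, and none of those tested at the other genes passed the threshold in any comparison. Between PRO and DIFF, 5.02% of all 13218 promoter regions were called in WT and 2.41% in p27KO. The lack of calls among so few promoters is therefore not read as a result about these genes. The 4 regions at the 10 genes that passed the threshold had summits more than 3 kb from a start site of their gene. For 1 of them this was only just so (Dlk1 at -3.11 kb). Of the 58 regions, 16 had a peak in all 10 libraries, 17 in 5 to 9, 13 in 2 to 4 and 12 in 1 library. The share open in all 10 was 27.6%, which is at the background of 27.5% of all 137454 regions. Plagl1 held 12 regions, Grb10 10 and Nnat 9, while H19 and Meg3 held 1 each. The map of peaks by library shows the open sites lined up over the same positions in most panels, with a few that appear in PRO or in DIFF libraries.

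**Figure D1:**
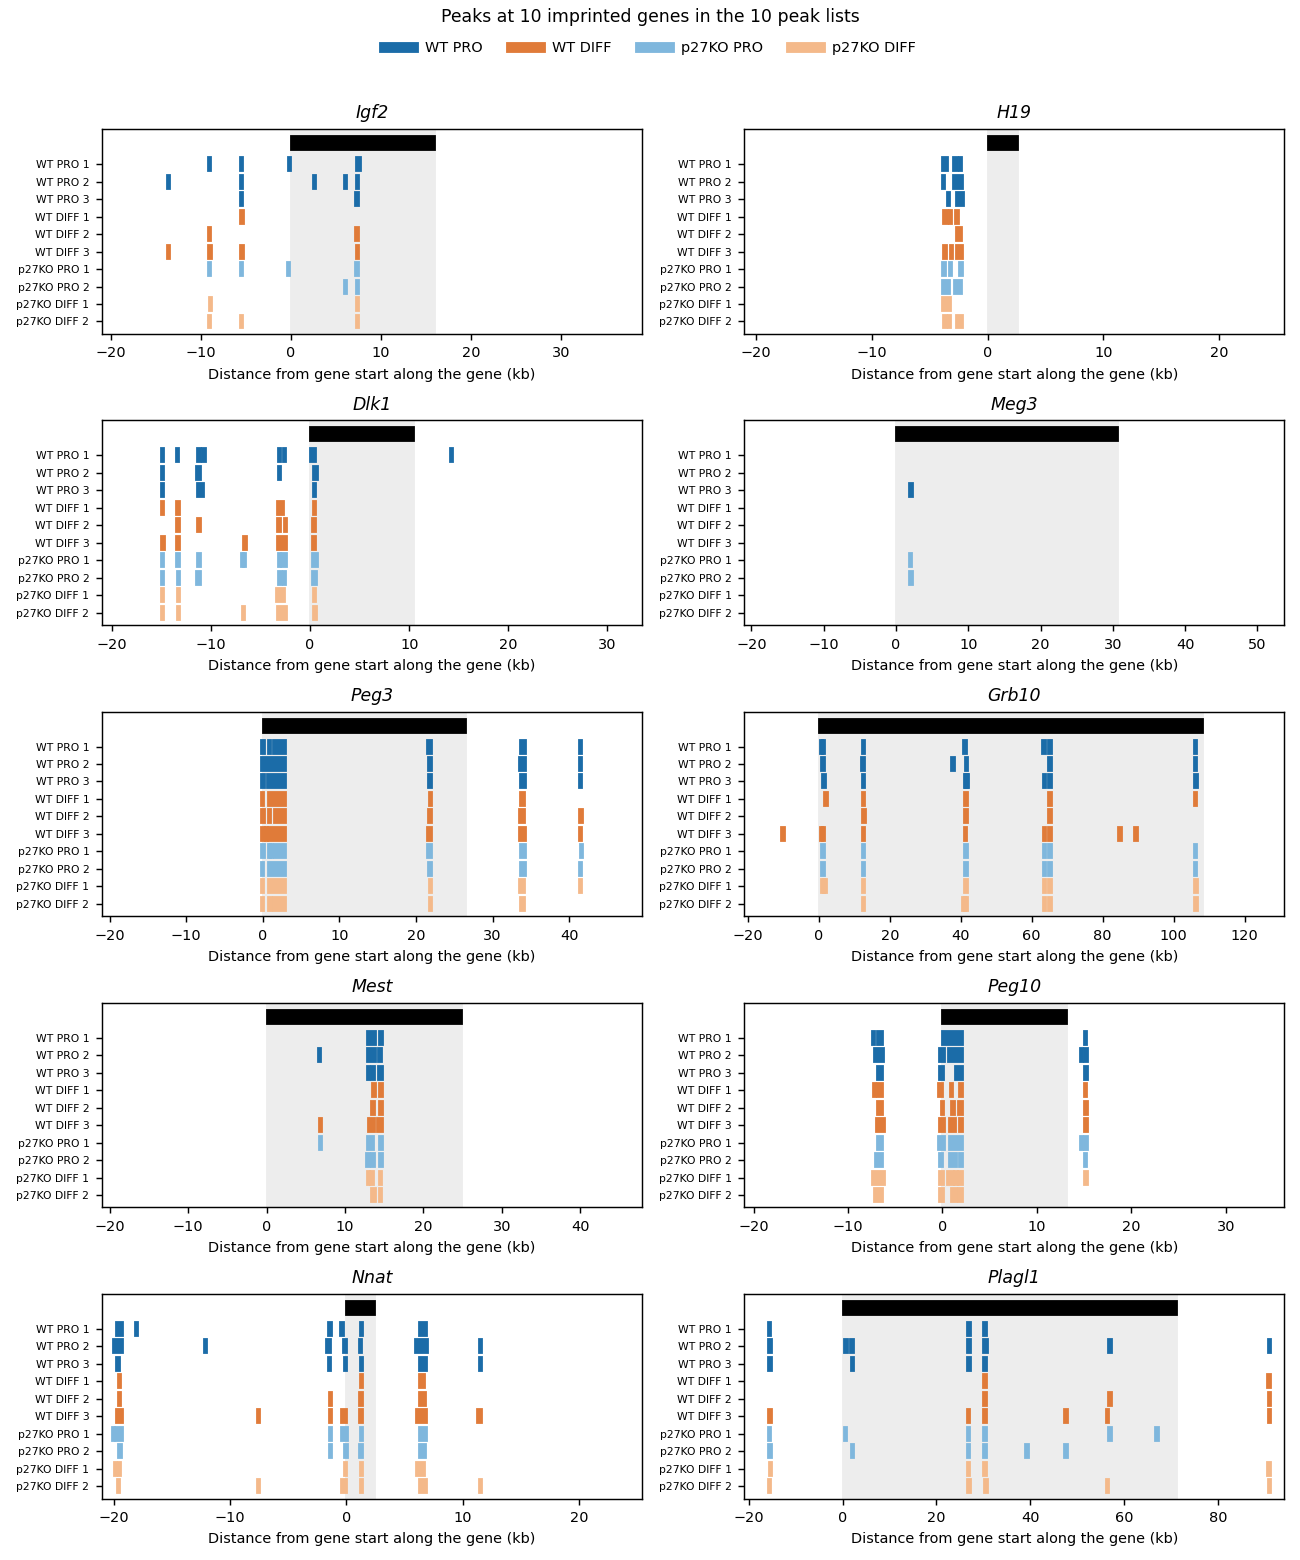
Peaks at the 10 genes in each of the 10 libraries (rows), by distance from the gene start along the gene in kb, drawn at a minimum width so that short peaks can be seen. The black bar and grey band are the gene body; H19 has peaks only upstream, and Meg3 has 1 peak in 3 of the PRO libraries.

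The measure used for level was the fold enrichment at the summit, the ratio of stacked fragments to the background expected around them in that library, with 1 added to each. Because the number of peaks differed between lists, levels were compared through the rank of a peak within its own list, given as a percentile (0 lowest, 100 highest). The test used that rank as a normal score, a scale on which 1 unit is 1 SD of the ranked regions. Regions lacking a peak were tied at the bottom of their list. The more regions lacked a peak, the higher their shared score, so the loss of a weak peak could give a small change. At Nnat at -1.38 kb both p27KO PRO libraries and neither p27KO DIFF library had a peak, and the change was -0.35. A region without a called peak may still have been accessible below the caller's threshold. Pileups were recovered from the fold and its p-value for the 379 of 398 peaks with a −log10 p-value under 60. They were 10 to 143 fragments at the summit with a median of 25, so many of these peaks rested on few fragments. The strongest peaks, such as those of Peg3 at 33.88 kb, are left out, so 143 need not be the highest pileup.

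H19, a maternally expressed long non-coding RNA, had no peak at its own start site in any library. Its window held 1 region, of 1891 bp, upstream of the gene (chr7:142580192-142582082, intergenic, summit at -3.85 kb), and this region was open in all 10 libraries. Fold enrichment was 6.65, 4.79 and 4.17 in WT PRO, 5.17, 3.64 and 3.86 in WT DIFF, 4.4 and 3.75 in p27KO PRO, and 4.59 and 4.93 in p27KO DIFF. The groups overlapped. The pileup was 15 to 23 fragments, and each library had 1 to 3 separate peaks along the region. The DIFF minus PRO change was -0.02 ± 0.25 (SE) in WT and 0.52 ± 0.30 in p27KO, with adjusted p = 0.973 and 0.319 (limma).

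The letters of this region set it apart from most windows of its width. It held 5 matches of the CTCF part and 5 of the ZFP57 hexamer, of which the window printed above has 3 of the CTCF part. As many matches were found in 0.404% and 0.283% of the 98991 windows of the same width around the summits of regions open in at least 2 libraries, and any match in 47.9% and 23% of them. The summits of the separate peaks spread along the region and did not fall at 1 place in all libraries.

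Igf2, the paternally expressed growth factor next to H19, had little accessible chromatin at its first start site. The region there (summit at -0.11 kb on the scale of the map) had a peak in 1 WT PRO and 1 p27KO PRO library, with fold enrichments of 3.88 and 3.04. An internal start site 7.47 kb into the gene (chr7:142659033-142659615, UTR of Igf2) was open in 9 of 10 libraries. Its fold enrichment was 4.06, 5.1 and 4.46 in WT PRO, 3.47 and 4.02 in WT DIFF with no peak in replicate 1, 4.22 and 5.33 in p27KO PRO, and 3.91 and 5.4 in p27KO DIFF. The change was -0.22 ± 0.24 in WT (adjusted p = 0.585) and 0.22 ± 0.29 in p27KO (adjusted p = 0.706). The tested region with the largest change in WT was intergenic, at -8.98 kb between Igf2 and Ins2, with 0.91 ± 0.40 and adjusted p = 0.146. It had a peak in 1 of 3 WT PRO libraries, at 4.16, and in 2 of 3 WT DIFF libraries, at 4.07 and 6.14.

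Meg3, the maternally expressed non-coding RNA of the Dlk1 locus, had a single region (chr12:109542938-109543161, exon of Meg3). It had a peak in WT PRO replicate 3 and in both p27KO PRO libraries, with fold enrichments of 3.42, 3.11 and 5.63, and none in any of the 5 DIFF libraries. It was open in fewer than 5 libraries and so was not tested. Among regions open in at least 5 libraries, the next, 24.26 kb from the gene and thus just outside the limit, was open in 8 libraries.

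Dlk1, a paternally expressed transmembrane protein related to the Notch ligands, was the 1 gene of the 10 with a region called lower and a region called higher in WT DIFF. Its promoter region (chr12:109452830-109453620, summit 0.40 kb into the gene, UTR) was open in all 10 libraries with fold enrichments of 3.61 to 6.96. The change there was -0.06 ± 0.23 in WT and 0.46 ± 0.28 in p27KO, with adjusted p = 0.892 and 0.343. It held 1 ZFP57 hexamer, as many as in 14.6% of windows of its width, and none of the other motifs.

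The region at -11.23 kb (chr12:109441283-109442293, intergenic, printed above) was lower in DIFF. Its fold enrichment was 6.83, 7.47 and 5.84 in WT PRO and 3.33 in WT DIFF replicate 2, with no peak in the other WT DIFF libraries. In p27KO it was 4.8 and 6.35 in PRO with no peak in DIFF. The groups did not overlap in either genotype. The change was -1.21 ± 0.30 in WT (adjusted p = 0.0154, limma) and -1.11 ± 0.36 in p27KO, where adjusted p = 0.073 missed the threshold of 0.05. Without WT PRO replicate 2 the WT value was -1.15 with adjusted p = 0.0508.

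The region at -3.11 kb (chr12:109449427-109450522, intergenic) was higher in DIFF. Its summit lay just beyond the 3 kb limit used for promoters. Some libraries had a peak summit inside that limit, such as WT DIFF replicate 2 at -2477 bp and p27KO PRO replicate 1 at -2609 bp. Fold enrichment was 4.02 and 3.08 in WT PRO with no peak in replicate 3, and 5.22, 3.36 and 4.58 in WT DIFF. It was 4.01 and 3.35 in p27KO PRO and 6.4 and 6.25 in p27KO DIFF. The p27KO groups did not overlap, while WT DIFF replicate 2 lay below WT PRO replicate 1. The change was 0.94 ± 0.24 in WT and 1.18 ± 0.30 in p27KO, with adjusted p = 0.0199 and 0.0254. This call depended on single libraries: adjusted p was 0.0539, 0.0741 and 0.077 in WT without PRO replicate 2, PRO replicate 3 or DIFF replicate 1. In p27KO it was 0.0651 to 0.144 when any of its 4 libraries was left out.

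**Figure D2:**
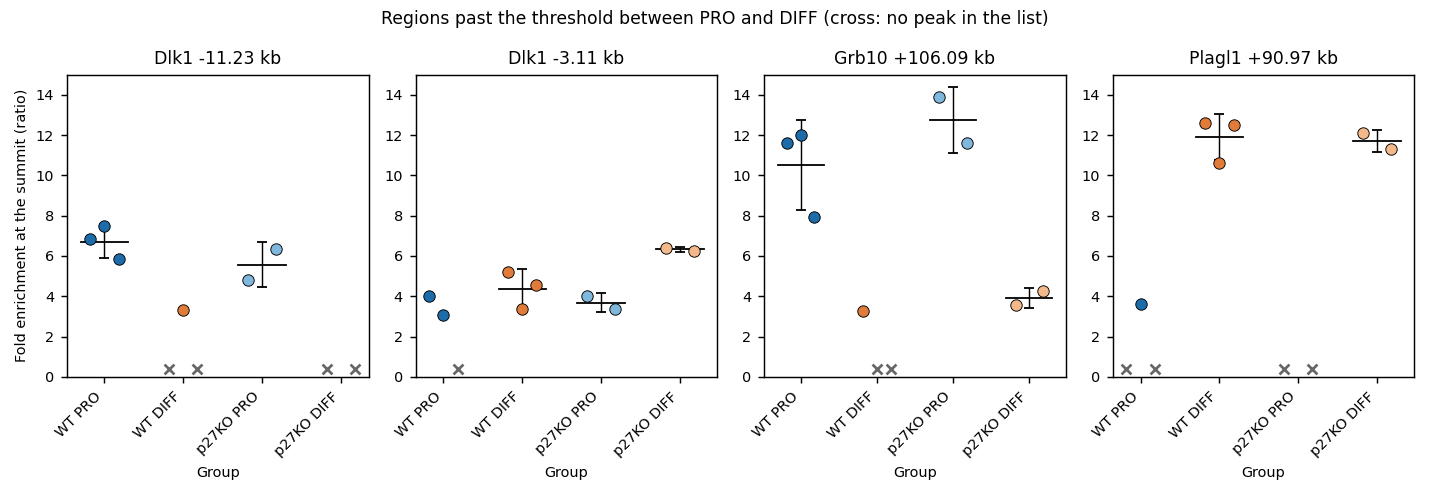
Fold enrichment at the summit (ratio, linear axis from 0) of the 4 regions past the threshold, by group; points are libraries, bars are mean ± SD where every library had a peak, and crosses mark libraries with no peak. The Plagl1 region lies between 10.6 and 12.6 in all 5 DIFF libraries and has 1 PRO peak, at 3.63.

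Plagl1, a paternally expressed zinc-finger transcription factor, showed the largest change of all the regions tested at the 10 genes. The region concerned (chr10:13151180-13151863) lies 90.97 kb from the gene start, in an intron of the neighbouring gene Zc2hc1b. It is 19.78 kb past the end of Plagl1 and so only just inside the 20 kb limit. Among regions open in at least 5 libraries, the nearest outside that limit, at 25.66 kb, had fold enrichments of 3.39 to 4.55 in 5 libraries. Fold enrichment was 12.6, 10.6 and 12.5 in WT DIFF and 12.1 and 11.3 in p27KO DIFF. Among the PRO libraries only WT replicate 2 had a peak, at 3.63.

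In rank, the peak stood at the percentiles 94.5, 87.9 and 89.8 of the WT DIFF lists and 89.2 and 81.5 of the p27KO DIFF lists, and at 17.4 in WT PRO replicate 2. The change was 2.77 ± 0.24 in WT (adjusted p = 7.69e-05) and 2.87 ± 0.29 in p27KO (adjusted p = 0.000416). It passed the threshold under each of the 18 alternatives at which it could be tested, in both genotypes, with adjusted p of 2.86e-05 to 0.000607 in WT and 0.000244 to 0.0104 in p27KO. The difference between the genotypes was 0.10 ± 0.38 (unadjusted p = 0.799). This region lies inside another gene, and the values do not say which gene it belongs to.

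No start site region of Plagl1 was called. Its main open region (chr10:13090436-13091485, summit 30.28 kb into the annotated gene, at an internal start site) was open in all 10 libraries, with fold enrichments of 10.6, 11.3 and 11.7 in WT PRO and 8.21, 9.17 and 10.6 in WT DIFF. In p27KO they were 12.9 and 11.7 in PRO and 10.8 and 9.49 in DIFF. The change was -0.07 ± 0.19 in WT and -0.19 ± 0.23 in p27KO, with adjusted p = 0.83 and 0.661. This region held 6 ZFP57 hexamers, of which 4 are in the window printed above, and as many were found in 0.0374% of windows of its width.

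Grb10 encodes an adaptor that restrains insulin and IGF receptor signalling and is unusual in being used from different parental copies in neurons and other cells. Its window held 10 regions. A region in the UTR at the 3′ end of the gene (chr11:11932068-11932741) was lower in DIFF, with fold enrichments of 11.6, 12 and 7.93 in WT PRO and 3.29 in WT DIFF replicate 1 alone. In p27KO the values were 13.9 and 11.6 in PRO and 3.57 and 4.26 in DIFF. The groups did not overlap in either genotype.

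The change at this region was -1.97 ± 0.29 in WT (adjusted p = 0.000861) and -1.66 ± 0.35 in p27KO (adjusted p = 0.0112). The p27KO call was lost without PRO replicate 1, DIFF replicate 1 or DIFF replicate 2, with adjusted p of 0.0702, 0.0591 and 0.0589, and the direction held. No other region of the gene was called in either genotype. The intronic regions at 65.14 and 41.38 kb and the region at 12.73 kb, close to an internal start site, were open in all 10 libraries, with fold enrichments of 8.41 to 13, 6.09 to 11.7 and 7.64 to 11.6. Their changes were 0.61, 0.46 and 0.32 in WT, with adjusted p = 0.0838, 0.184 and 0.26 (limma). In p27KO they were 0.26, 0.75 and 0.51, with adjusted p = 0.61, 0.108 and 0.177.

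The region nearest a start site of Grb10 (1.11 kb into the gene, chr11:12036507-12038006, 1500 bp) was open in 8 libraries. Fold enrichment was 4.95, 5.03 and 5.97 in WT PRO, 3.04 and 4.32 in WT DIFF with none in replicate 2, 5.31 and 4.05 in p27KO PRO, and 3.82 in p27KO DIFF replicate 1 alone. Among the promoters of the 10 genes its change in WT was the largest in size, -0.50 ± 0.27, and its adjusted p of 0.242 missed the threshold. In p27KO it was -0.42 ± 0.34 with adjusted p = 0.482. Both this region and that at 12.73 kb held 4 ZFP57 hexamers, as many as 0.589% and 0.461% of windows of their widths.

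Peg3, a paternally expressed zinc-finger protein, had 4 regions, of which 3 were open in all 10 libraries. The region at its start site and first intron was the widest of those at the 10 genes (chr7:6727366-6730615, 3250 bp). It covers the start of Usp29 as well, which lies head to head with Peg3. Fold enrichment was 4.91, 5.02 and 5.22 in WT PRO, 5.51, 5.56 and 5.21 in WT DIFF, 5.28 and 5.46 in p27KO PRO, and 5.93 and 6.48 in p27KO DIFF. WT DIFF overlapped WT PRO at 1 value and p27KO DIFF was above p27KO PRO, yet the change was 0.43 ± 0.20 in WT and 0.41 ± 0.24 in p27KO, with adjusted p = 0.165 and 0.332. These folds were modest although the pileup was 129 to 136 fragments in the 3 libraries for which it was recovered, and the local background was high as well.

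The Peg3 region held 11 YY1 matches and 8 ZFP57 hexamers, as many as 0.0242% and 0.0475% of windows of its width. Of the YY1 matches, 3 stand in the window printed above, on the same strand. All 11 lay 838 to 3004 bp downstream of the start site. The highest level among the 10 genes was at 33.88 kb, beyond the end of Peg3 and 0.10 kb from a start site of Zim1, with fold enrichments of 17.1 to 24. It stood at or above the percentile 99.1 in every list, and its change was 0.02 ± 0.20 in WT and 0.35 ± 0.24 in p27KO, with adjusted p = 0.96 and 0.409.

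**Figure D3:**
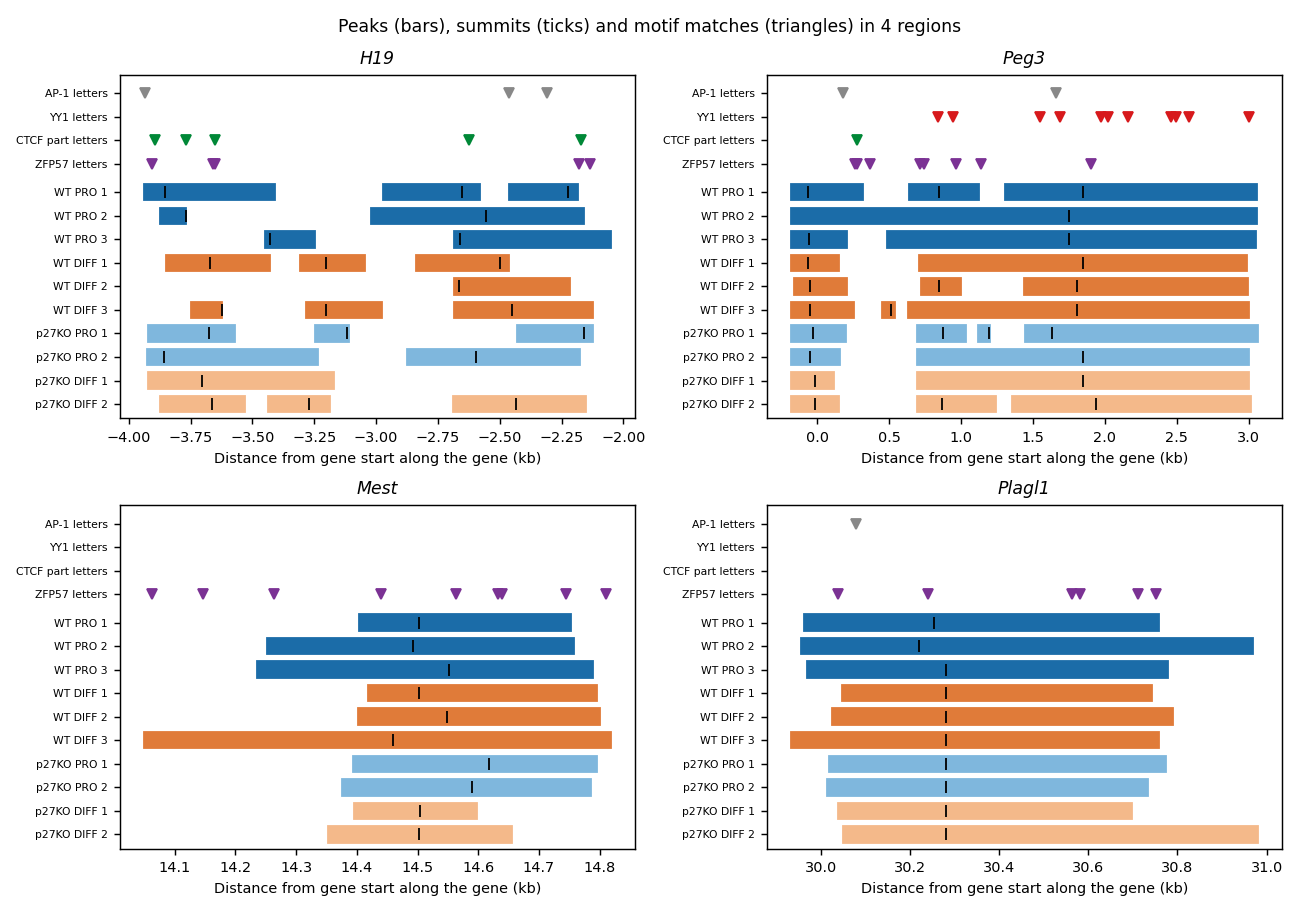
Peaks (bars, 1 row per library), summits (ticks) and matches of 4 motifs (triangles) in the regions upstream of H19 and at start sites of Peg3, Mest and Plagl1, by distance from the gene start in kb. The H19 region has several short peaks per library around 5 CTCF part matches, and the Peg3 region has a long peak over 11 YY1 matches.

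Mest, a paternally expressed enzyme of the hydrolase-fold family, had its open chromatin at internal start sites, not at the outermost one. The region at 14.50 kb (chr6:30737596-30738366) was open in all 10 libraries. Fold enrichment was 5.67, 5.34 and 6.65 in WT PRO, 4.77, 4.88 and 4.88 in WT DIFF, 5.46 and 5.89 in p27KO PRO, and 4.5 and 7.61 in p27KO DIFF. WT DIFF lay below WT PRO in fold, but in rank the change was 0.02 ± 0.22 (adjusted p = 0.962), and in p27KO it was 0.23 ± 0.27 (adjusted p = 0.648). It held 9 ZFP57 hexamers in 771 bp, as many as 0.00202% of windows of its width, the smallest such share among the regions examined. The neighbouring region at 13.62 kb changed by 0.39 ± 0.16 in WT and 0.46 ± 0.20 in p27KO, with adjusted p = 0.123 and 0.171.

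Peg10, a paternally expressed gene derived from a retrotransposon, had a promoter region of 2692 bp (chr6:4746786-4749477) open in all 10 libraries at fold enrichments of 7.42 to 9.74. The region also covers a start site of Sgce, 1.99 kb from its summit, so its values are not those of Peg10 alone. Its change was 0.32 ± 0.19 in WT and 0.03 ± 0.23 in p27KO, with adjusted p = 0.273 and 0.955. It held 3 ZFP57 hexamers, as many as in 2.74% of windows of its width, and no match of the other motifs. The region at -6.59 kb lies in an intron of Sgce, the neighbouring imprinted gene, 0.51 kb from one of its start sites. It ranged from 9.34 to 14.5 and changed by 0.33 ± 0.20 and 0.16 ± 0.25, with adjusted p = 0.284 and 0.746.

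Nnat, a paternally expressed small membrane protein encoded inside an intron of Blcap, had 9 regions. The region over its start site (chr2:157559581-157560194) was open in 8 libraries. Fold enrichment was 4.05, 3.83 and 3.52 in WT PRO and 3.09 in WT DIFF replicate 3 alone. In p27KO it was 5.36 and 3.5 in PRO and 3.12 and 4.93 in DIFF. The WT groups did not overlap while the p27KO groups did. The change was -0.29 ± 0.21 in WT and 0.13 ± 0.25 in p27KO, with adjusted p = 0.37 and 0.8, and the difference between the genotypes, 0.42 ± 0.32, had an unadjusted p of 0.224. This region held 3 ZFP57 hexamers, as many as in 0.549% of windows of its width, and the region at 1.31 kb held no match of any of the 4 motifs. The region at 6.53 kb, 0.24 kb from a start site of Blcap, was open in all 10 libraries at 4.65 to 8.67.

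Across the 33 tested regions at the 10 genes, 2 were lower and 2 higher in WT DIFF than in WT PRO at an adjusted p under 0.05. The background over all 70627 tested regions was 10.1% lower and 9.15% higher. In p27KO 1 was lower and 2 were higher, beside 6.48% and 5.83% of all regions. The shares of the 33 were 6.06% in each direction in WT, and 3.03% and 6.06% in p27KO. These are below the background in WT and for lower regions in p27KO, and close to it for higher regions in p27KO. The counts are small, and member calls ranged from 2 to 5 in WT and 1 to 4 in p27KO when single libraries were left out. No difference from the background is therefore drawn from these shares. The median change was 0.02 in WT and 0.21 in p27KO, against 0.03 and 0.04 over all tested regions. None of the regions called had its summit within 3 kb of a start site of its gene, though Dlk1 at -3.11 kb was just beyond. With 5.02% of all promoter regions called in WT and 2.41% in p27KO, this is not read as a result about the promoters.

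**Figure D4:**
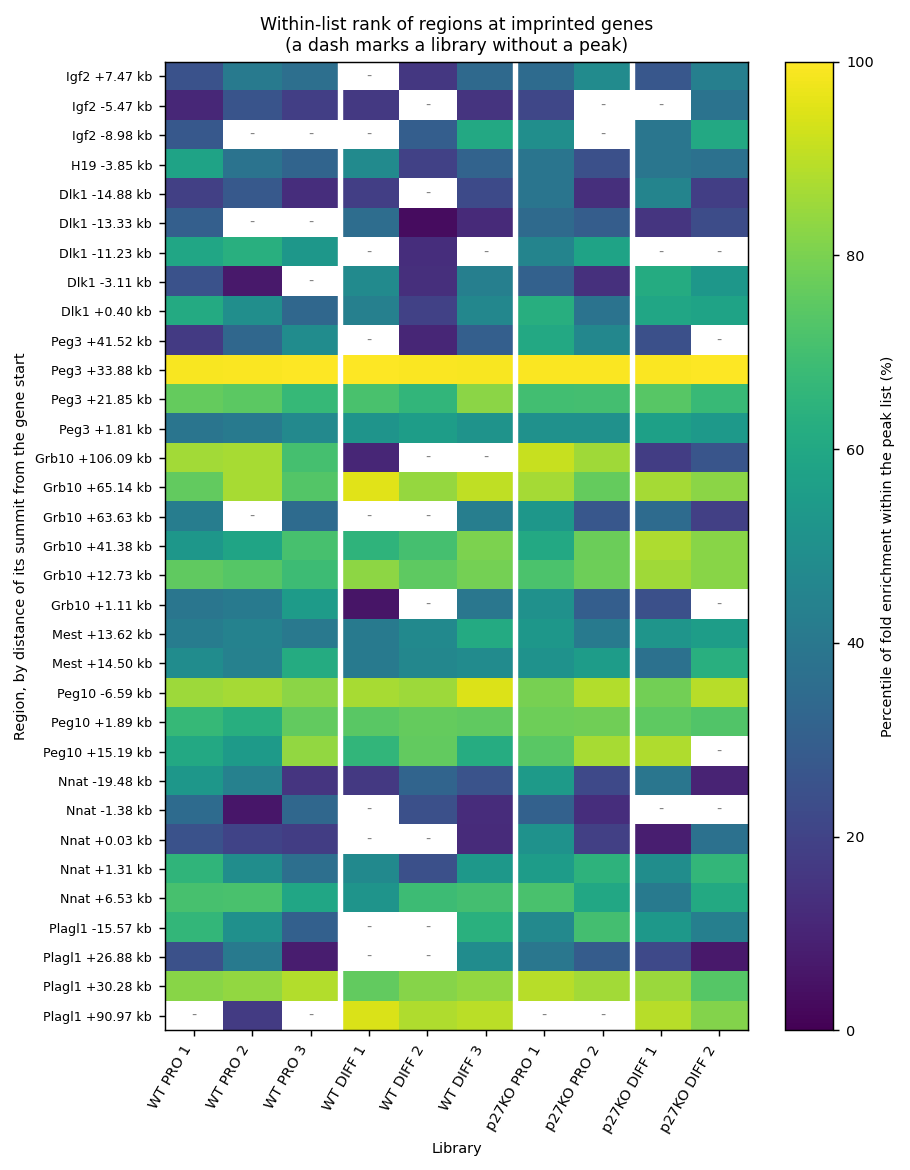
Percentile of the fold enrichment within each library's own list (colour, 0 to 100) for the 33 tested regions (rows) in the 10 libraries (columns), with a dash where no peak was called. The row at 33.88 kb of Peg3 is near 100 throughout, and the last row, Plagl1 at 90.97 kb, has high values in the 5 DIFF libraries and 1 low value in PRO.

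The same question was put to presence alone, in the 46 regions open in at least 2 libraries. In WT 0 of 46 had a peak in every PRO library and none in DIFF, and 0 showed the reverse, beside 4.32% and 1.86% of all 99231 such regions. In p27KO 3 had a peak in both PRO libraries and none in DIFF, namely Dlk1 at -11.23 kb, Meg3 at 2.12 kb and Nnat at -1.38 kb, beside 10.9% of all regions. The reverse held for 1, Plagl1 at 90.97 kb, beside 3.32%. With 2 libraries a group such patterns are more frequent by construction. Without WT DIFF replicate 3, the list with the most peaks of its group, 3 regions met the WT pattern of loss, namely Nnat at 0.03 kb and Plagl1 at -15.57 and 26.88 kb, beside 9.9% of all 99231 regions under the same omission.

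No difference between the genotypes was called at the 10 genes. The interaction of genotype and condition was called at 0 of 33 regions (limma) beside 0% of all 70627, and at an unadjusted p under 0.05 at 0 of 33 beside 3.91% of all. Between p27KO and WT in PRO 0 regions were called, beside 0.034% of all, with 0 at an unadjusted p under 0.05 beside 5.53% of all. In DIFF 0 were called, beside 0.0156% of all, and 1, or 3.03%, had an unadjusted p under 0.05 beside 4.91% of all. This was the Nnat start site, with a difference of 0.62 ± 0.23 and adjusted p = 0.952 (limma). These comparisons share libraries with those between PRO and DIFF. The 2 libraries a group in p27KO limit what could be called, and a value past the threshold in 1 genotype alone was not shown to differ between them.

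**Figure D5:**
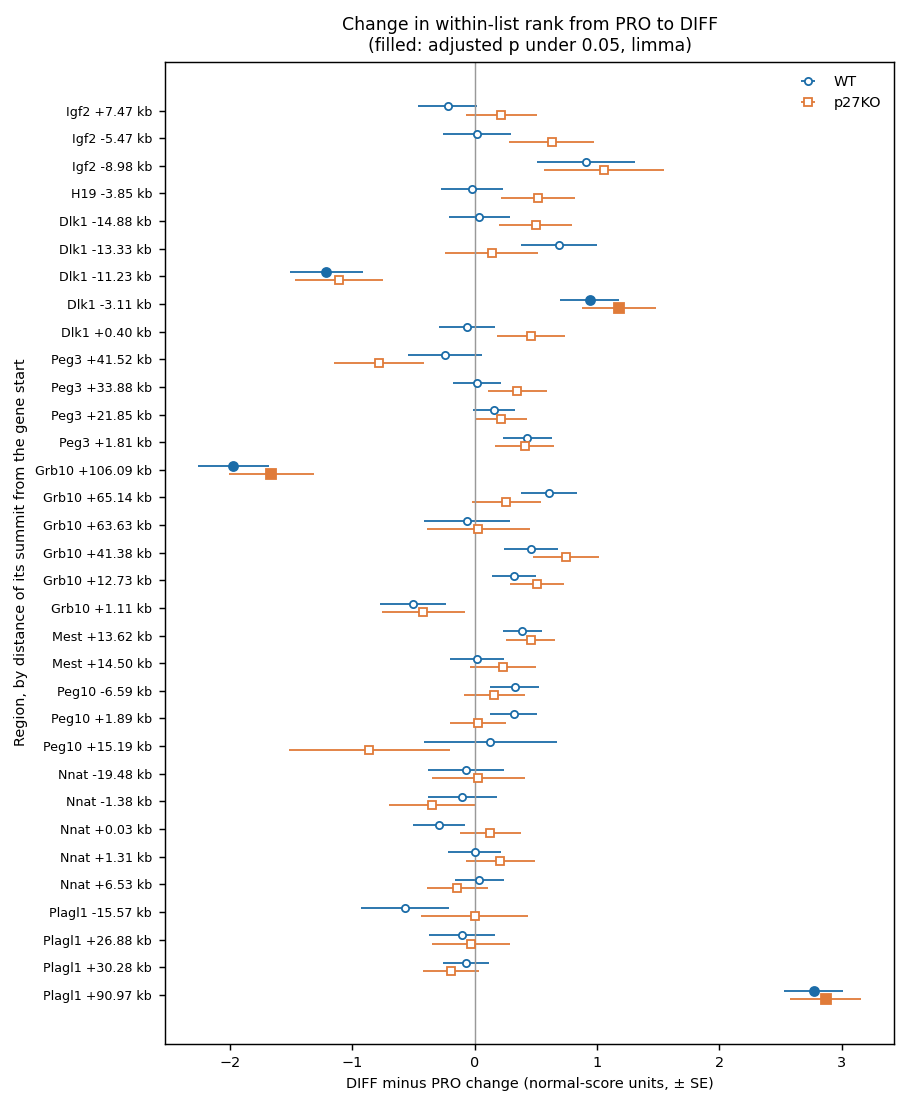
Change in within-list rank from PRO to DIFF (normal-score units, points with SE bars) at the 33 tested regions in WT (circles) and p27KO (squares), filled where the adjusted p was under 0.05. Values lie near 0 at most regions, with Plagl1 at 90.97 kb at 2.77 and 2.87 and Grb10 at 106.09 kb at -1.97 and -1.66.

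The regions were also compared in sequence features that the choice of genes did not use. The choice of the ZFP57, CTCF part and YY1 letters, however, did rest on known roles at such genes. In the 201 bases around the summit the ZFP57 hexamer was present in 10.9% of the 46 regions, beside 5.95% of 98991 regions. The CTCF part was present in 8.7% beside 10.7%, YY1 in 0% beside 3.85%, and AP-1 in 6.52% beside 8.83%. The median number of CpG dinucleotides was 4.5 beside 3, with the highest, 33, at the Grb10 region near its start site. Most matches described above for H19, Peg3, Mest and Plagl1 lay outside the 201 bases around the summit that stands for their region. That summit comes from the peak with the lowest p-value. Other libraries had summits elsewhere in these regions, some of them close to matches. At H19, p27KO PRO replicate 1 had a summit at -2160 bp, near a CTCF part match at -2170 bp.

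A list of 50 further imprinted genes gave the setting for the promoters. Of these, 47 had a region within 3 kb of a start site and 39 had one that was tested; 4 of the 39 (Zim1, Usp29, Sgce and Blcap) use a region already counted at Peg3, Peg10 or Nnat. In WT 2 were lower in DIFF and 0 higher, beside 5.02% of 13218 promoter regions called in either direction. The 2 were Phactr2 with -0.96 and adjusted p = 0.0191, and Calcr with -0.74 and adjusted p = 0.0238. Both calls depended on single libraries. That of Phactr2 was lost without WT PRO replicate 2 or WT DIFF replicate 2 (adjusted p = 0.0739 and 0.0677, limma). That of Calcr was lost without WT PRO replicate 1 or 3 or WT DIFF replicate 1 or 2 (adjusted p = 0.0592 to 0.0817, limma), and the direction held in each case. In p27KO none was called (limma), beside 2.41%. There Phactr2 changed in the same direction, by -0.69 ± 0.30 (adjusted p = 0.176, limma). Calcr changed in the opposite direction, by 0.46 ± 0.24 (adjusted p = 0.272, limma). The difference between the genotypes at Calcr was 1.20 ± 0.32, with an unadjusted p of 0.00285 (limma), and was not called after adjustment. The median change of the list was 0.08 in WT and 0.11 in p27KO, against 0.12 and 0.13 over all promoter regions.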

How the data were processed

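ATAC-seq peak lists of 10 libraries were analysed. Per the study's methods, the authors trimmed reads with cutadapt and Trimmomatic, mapped them to GRCm38 (mm10) with Bowtie2, marked duplicates and called narrow peaks per library with MACS2 at a false discovery rate of 0.05; versions, and any shift for the transposase offset, are not given in the sources used here. Each deposited list gives the fold enrichment as a ratio of pileup to local background, the −log10 p-value and −log10 q-value, and a score that was not used. Only called peaks are listed, and read depth is unknown.

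Peaks were merged over 1 bp of overlap; regions open in at least 5 libraries were ranked within each list, turned into normal scores and tested with limma 3.58.1 (R 4.3.3) over all 70627 regions with Benjamini-Hochberg adjustment and no replicate block. The test was also run on simulated normal noise with added shifts. That simulation held no absent peaks or tied ranks, so it cannot check how those were handled. The study's own test used read counts per region from alignments, which were not used here. The members, lists and tests were chosen with earlier results of these data known. The text names each gene's region nearest a start site within 3 kb, every region past the threshold, and the tested region with the largest change in WT; other regions are named as examples after their values were seen. The comparison of promoters by likeness of pattern is not reported here. Gene positions came from GENCODE M21, sequences from RefSeq's copy of GRCm38. Alternatives were ranking by p-value, other minima of libraries, a stricter q-value, 57000 peaks per list, 500 bp summit windows, flanks of 5, 0 and 50 kb, only the groups compared, a replicate block and leaving out each library.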

Additional observations from a re-analysis of the deposited data

How the results depend on the processing

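The Plagl1 call at 90.97 kb in both genotypes and the Grb10 call at 106.09 kb in WT held under every alternative at which they could be tested, and no member region was called between the genotypes under any. In p27KO the Dlk1 region at -11.23 kb passed the threshold under ranking by p-value (-1.41, adjusted p = 0.0428), with only the groups compared (adjusted p = 0.0445) and with 2 of the WT libraries left out in turn, and that at -3.11 kb lost it under ranking by p-value (1.18, adjusted p = 0.0578) and with regions in at least 2 libraries (0.91, adjusted p = 0.0744). Read depth is unknown and only called peaks are listed, so an absent peak may be a weak one.

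With only regions open in all 10 libraries, 4880 of all regions were called in WT, 2398 in p27KO, 0 between genotypes in PRO and 0 in DIFF, and 0 member regions in WT and 0 in p27KO, since the 4 called regions are absent from some lists. With regions in at least 2 libraries, the interaction gave 16 calls over all regions, the genotypes in PRO 71 and in DIFF 29. Windows of 500 bp gave 5 for the interaction. In DIFF the genotypes gave 17 by p-value ranks and 5 with only the groups compared. A flank of 5 kb left 2 member calls in WT. With 0 kb there were 32 member regions, 1 call in WT and 1 in p27KO. With 50 kb, and thus wider windows, there were 5 calls in p27KO. The flank alters only which regions count as members. The shares of all regions called thus stayed at 10.1% lower and 9.15% higher in WT, and 6.48% and 5.83% in p27KO. No result about the members is drawn from these counts. The top 57000 peaks of each list left 38 member regions.

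For presence, the regions lost in WT numbered 2 with 50 kb and 1 with the stricter q-value, and those gained 1 with the top 57000 peaks. In p27KO the regions lost numbered 1 with 0 kb and 1 with the top 57000 peaks, and those gained 0 with 5 kb, 0 with 0 kb, 2 with 50 kb and 2 with the top 57000 peaks. With other flanks the shares of all regions stayed at 4.32% lost and 1.86% gained in WT, and 10.9% and 3.32% in p27KO. For the stricter q-value and the top 57000 peaks such shares were not computed. No result about the members is drawn from these counts.

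Changes that were near 0 and not called turned sign. By p-value ranks these were H19 at 0.01, the Dlk1 promoter at 0.12 and Mest at 14.50 kb at -0.05, all in WT. With regions in all 10 libraries they were Mest at -0.11 in WT and Peg10 at 1.89 kb at -0.00 in p27KO, and with the stricter q-value Nnat at 0.03 kb at -0.05 in p27KO.

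Leaving out each library in turn gave 10162 to 13110 calls over all regions in WT and 4122 to 8968 in p27KO, 8 to 27 between genotypes in PRO and 5 to 16 in DIFF. Member calls ranged from 2 to 5 in WT (2 without PRO replicate 2) and from 1 to 4 in p27KO (1 without PRO replicate 1 or DIFF replicate 2). Other imprinted promoters called ranged from 0 to 3 in WT (0 without DIFF replicate 2) and 0 to 1 in p27KO. With all libraries kept, 5.02% and 2.41% of all promoter regions were called, and these shares were not computed for each omission. Presence losses ranged from 0 to 3 in WT and 3 to 9 in p27KO, beside 4.62% to 9.9% and 14% to 17.5% of all regions. Gains ranged from 0 to 1 and 1 to 4, beside 2.08% to 3.85% and 4.34% to 6.55% of all regions. The uncalled changes that turned sign ranged in WT from -0.24 to 0.21 at H19, -0.23 to 0.10 at the Dlk1 promoter, -0.10 to 0.17 at Mest and -0.15 to 0.02 at Plagl1 at 30.28 kb. In p27KO they ranged from -0.04 to 0.47 at Igf2 at 7.47 kb, -0.92 to 0.07 at Grb10 at 1.11 kb, -0.02 to 0.48 at Mest, -0.08 to 0.40 at Peg10 at -6.59 kb, -0.04 to 0.10 at Peg10 at 1.89 kb, -0.20 to 0.46 at Nnat and -0.41 to 0.03 at Plagl1 at 30.28 kb. Except where the construction of an alternative shows it, the cause of these shifts was not tested.

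Replicate numbers are shared between PRO and DIFF, but the deviations of same-numbered libraries correlated by 0.0575, 0.0647 and 0.0328 in WT, each higher than with the other numbers, and -0.141 in p27KO, so the numbers were not taken to pair them. With a replicate block 13033 regions were called in WT and 8292 in p27KO, with 4 and 4 member regions; the added call in p27KO was Dlk1 at -11.23 kb (-1.11, adjusted p = 0.0455). The crossed pairing of p27KO, chosen after seeing the data, gave 13440 and 8579 calls, 4 and 4 member regions and 1 further imprinted promoter in p27KO.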

Other observations

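Several open regions of the 10 genes belong to no start site and were not described above. Upstream of Dlk1, the regions at -14.88 and -13.33 kb were open in 9 and 8 libraries, at fold enrichments of 3.28 to 4.93 and 2.87 to 4.4. Inside the coding sequence of Peg3, a region at 21.85 kb was open in all 10 libraries at 6.71 to 10.3. Downstream of Peg10, a narrow region of 112 bp at 15.19 kb reached 6.35 to 12 in 9 libraries and had no peak in p27KO DIFF replicate 2. The 201 bases around its summit hold repeated copies of a short stretch in tandem. Whether the mapping of reads to this repeat shaped these values was not tested. At Nnat, the region at -19.48 kb, which is 19.48 kb from the gene and thus just inside the 20 kb limit, was open in all 10 libraries at 3.41 to 6.09. The Plagl1 regions at -15.57 and 26.88 kb each had a peak in all PRO libraries and both p27KO DIFF libraries, but in WT DIFF only in replicate 3, the library with the longest list of its group.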
